A study of Mus musculus with 87 samples.

Results

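The 8 genes described here are the mouse enzymes and the main partner proteins that write, copy and remove methyl groups on cytosine: Dnmt1, Dnmt3a, Dnmt3b, Dnmt3l, Uhrf1, Tet1, Tet2 and Tet3. They were taken by name from 26171 gene symbols, and all 8 have a row in each of 13 tables of expression comparisons. The study varied Suz12, a core subunit of the Polycomb repressive complex PRC2 that places H3K27me3, in the mouse embryonic stem cell (ESC) line 129-B13 grown in 20% serum with LIF. PolyA RNA was sequenced in 32 of the 87 samples, and the other 55 were ChIP-seq samples.

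The 18 ESC samples of RNA formed 8 groups. Wild type (WT) had 3 samples, CSex4 (WT cells with exon 4 of Suz12 made constitutive) had 2 and Deltaex4 (exon 4 deleted) had 2. The full Suz12 knock-out (KO) had 3, and KO cells given back the long isoform (KO-L) or the short isoform (KO-S) had 2 each. KO-L3D and KO-S3D, with 2 samples each, are KO cells that carry the long or the short isoform with the 3D mutation, a change downstream of exon 4, at the Rosa26 locus. The 14 samples of neuronal precursors (NP) were made from these cells through embryoid bodies with retinoic acid from day 4 and harvest on day 8, with 4 WT samples, and 2 of each other line apart from the 3D rescues, which were not analysed here in NP. The labels do not say how many clones a line stands for or whether replicates were separate cultures, so each p-value measures only the spread between these samples.

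Dnmt3a and Dnmt3b are the de novo methyltransferases, which add methyl groups to unmethylated CG sites, and Dnmt3l is their catalytically inactive partner. Uhrf1 binds CG sites that carry the methyl group on 1 strand after replication and brings in Dnmt1, which copies the mark to the new strand. Tet1, Tet2 and Tet3 oxidise methylcytosine, the first step of active removal by base excision repair. ESC are known for high Dnmt3b, Dnmt3l and Tet1 and for low Tet3, and Polycomb-bound promoters are typically CG-rich and unmethylated. The files used here measure the RNA of these enzymes, not DNA methylation.

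Promoter sequence is shown for the members whose RNA differed most between lines in ESC (Dnmt3a and Dnmt3b) and for the member with both a H3K27me3 and a Suz12 region at its gene start (Tet3). The Tet3 window is at another transcript start, which lies in neither of those regions. Each run is the 250 bases before a RefSeq transcript start (GRCm38.p6), 5′ to 3′ on the gene's strand, with every CG in capitals. The Dnmt3a window is chr12:3806730-3806979 on the plus strand, the Dnmt3b window is chr2:153649199-153649448 on the plus strand, and the Tet3 window is chr6:83441679-83441928 on the minus strand.
Dnmt3a: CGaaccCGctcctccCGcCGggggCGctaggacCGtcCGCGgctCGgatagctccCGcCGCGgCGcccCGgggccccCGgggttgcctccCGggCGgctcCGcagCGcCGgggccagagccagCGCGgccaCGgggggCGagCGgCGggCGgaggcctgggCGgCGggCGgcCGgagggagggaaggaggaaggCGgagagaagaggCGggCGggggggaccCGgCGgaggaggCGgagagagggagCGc
Dnmt3b: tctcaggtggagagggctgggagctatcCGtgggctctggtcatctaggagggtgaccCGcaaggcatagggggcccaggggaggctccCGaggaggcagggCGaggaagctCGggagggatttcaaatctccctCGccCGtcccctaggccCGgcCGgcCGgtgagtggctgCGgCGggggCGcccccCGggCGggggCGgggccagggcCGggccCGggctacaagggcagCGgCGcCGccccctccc
Tet3: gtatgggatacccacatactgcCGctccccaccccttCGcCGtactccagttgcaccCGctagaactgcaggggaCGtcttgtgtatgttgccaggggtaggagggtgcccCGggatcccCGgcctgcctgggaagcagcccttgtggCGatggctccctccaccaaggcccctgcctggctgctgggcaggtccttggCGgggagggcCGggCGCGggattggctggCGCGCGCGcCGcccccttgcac

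The 3 windows hold 38, 21 and 17 CG, in the order printed. Over 32851 such windows the median was 6 CG, and 92.1% held at least 1. Only 1.9% of windows had as many CG as the Dnmt3a window, against 16.3% for Dnmt3b and 23.5% for Tet3. The CG-richest window of the 8 genes was that of Tet2, with 51 CG, a number that 0.1% of windows reached, and the CG-poorest were the last window of Dnmt1 with 2 and the 3 windows of Dnmt3l with 5, 4 and 3. The other windows of Dnmt3a held 40 and 15 CG, those of Uhrf1 10 and 30, the other 2 of Dnmt1 26 and 7, and that of Tet1 15.

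In the 2 lists of ChIP-seq regions, Tet3 and Dnmt3a were the members with listed regions, and no region lay within 5000 bp of the start of the other 6 genes. The lists hold 6882 H3K27me3 and 2865 Suz12 regions that the authors deposited from DiffBind, without saying which groups were compared or in which direction a region changed. Tet3, which RefSeq places at chr6:83362373-83457208 on the minus strand, had an H3K27me3 region over its gene start (chr6:83453781-83457563) and a Suz12 region inside the same stretch (chr6:83456266-83457516). That Suz12 region was weakly placed, at rank 2791 of 2865 by the deposited value (3.66e-05, where the largest value in the list was 6.11e-05). A further 3 H3K27me3 regions covered chr6:83416711-83427294 with small gaps, from 29914 to 40497 bp inside Tet3. Dnmt3a, at chr12:3801559-3914443 on the plus strand, had 2 H3K27me3 regions, chr12:3804412-3806445 and chr12:3806457-3809128, and no Suz12 region. The latter region of Dnmt3a spans 2 RefSeq transcript starts and the whole Dnmt3a sequence printed above. The printed Tet3 sequence lies in none of the listed regions.

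**Figure D1:**
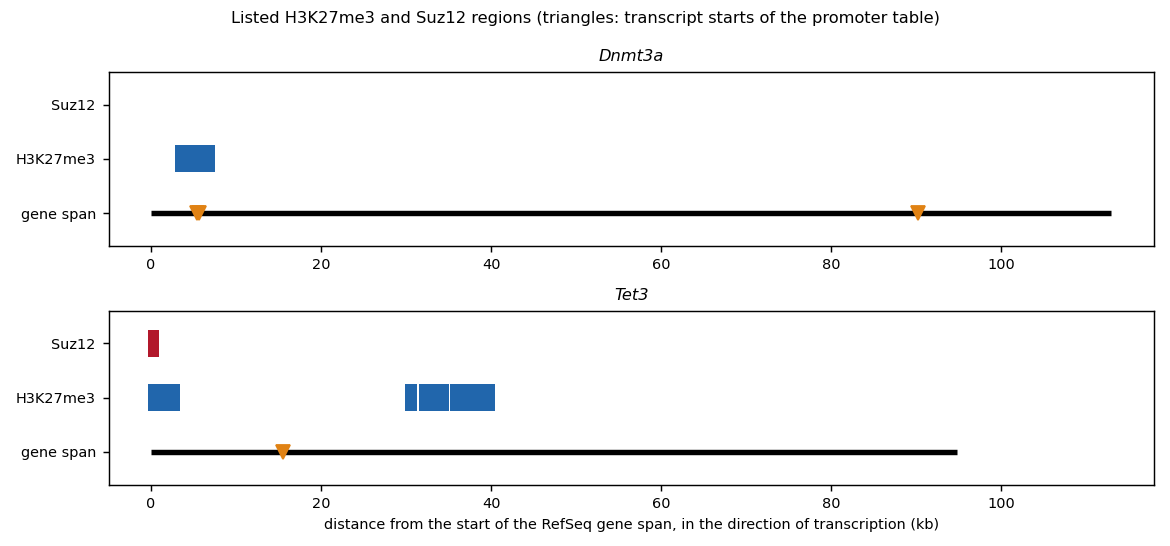
Regions listed for Dnmt3a and Tet3, drawn by distance in kb from the start of each RefSeq gene span (black bar), with blue for H3K27me3, red for Suz12 and triangles for transcript starts of the promoter table. The Dnmt3a regions lie over a pair of close transcript starts, and the Tet3 regions lie over the gene start and about 30 to 40 kb inside the gene, away from the triangle.

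Counted as genes with a region within 2500 bp of the gene start, 1 of the 8 members (Tet3) had an H3K27me3 region and 14.7% of all 27025 genes did. For Suz12 the count was again 1 of 8 (Tet3) against 7.62% of genes. These shares do not set the members apart, and the answer depends on which start is used. With RefSeq transcript starts in place of the gene start, Dnmt3a was the member with an H3K27me3 region (1 of 8, against 15% of genes), and no member had a Suz12 region (against 7.79%). This second reading was chosen after seeing the data.

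In WT cells the members fell into those at similar levels in both cell types and those far apart. Levels here are scaled reads per library, reconstructed from the mean and fold change of each authors' deposited table. They are not per gene length, so they are compared within a gene only, and because the ESC and NP tables were normalized separately they are given as a description with no test. In ESC WT the reconstructions for Dnmt3b ran from 16803 to 18309 over the 7 authors' deposited tables, which share the same 3 libraries, and in NP WT from 638 to 884 over 4 tables, a median 19.9-fold lower. Dnmt3l ran from 16421 to 17878 in ESC WT and from 121 to 687 in NP WT by the authors' deposited tables. The ranges of both genes in the 2 cell types do not overlap, and the NP level of Dnmt3l varied far more than that of any other member.

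Tet1 and Tet3 were the members with opposite placement. Tet1 lay between 16132 and 17443 in ESC WT and between 2397 and 2839 in NP WT, a median 5.86-fold lower in NP, as reconstructed from the authors' deposited tables. Tet3 lay between 477 and 514 in ESC WT and between 3970 and 5231 in NP WT, a median 8.31-fold higher in NP, from the same authors' deposited tables. The maintenance pair was less far apart: Dnmt1 had medians of 9782 and 10392, and Uhrf1 of 13181 and 6975, in ESC and NP WT by the authors' deposited tables. Dnmt3a had medians of 4596 and 6280 and Tet2 of 2160 and 1716 in these authors' deposited tables.

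**Figure D2:**
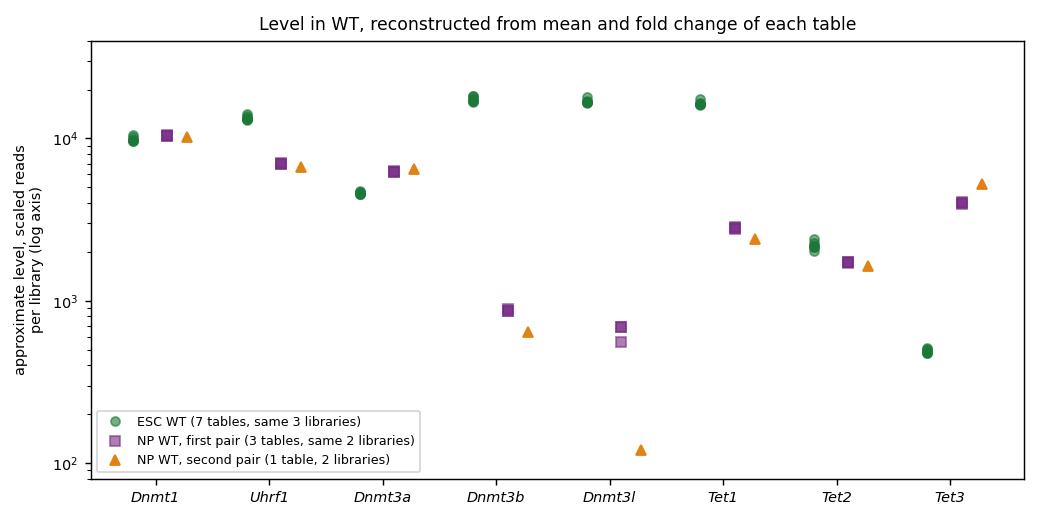
Approximate level of each member in WT (scaled reads per library, log axis), with 1 point per deposited table: green circles for ESC (7 tables on the same 3 libraries), purple squares for the first pair of NP libraries (3 tables) and orange triangles for the second pair (1 table). Dnmt3b, Dnmt3l and Tet1 sit lower in NP and Tet3 higher, and the second NP pair has Dnmt3l at 121, below the first pair.

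The libraries differ in ways that touch these results. The mean scaled total per library lay between 26085140 and 31499803 across the tables, and all 8 genes passed the authors' filter on low values in all 13 tables, the lowest mean being 330.4 for Dnmt3l in NP WT vs KO. All 7 ESC tables share their 3 WT libraries, and in 6 of them (all but KO) 1 WT library carries no weight in the fold changes. The file names call the statistics paired, so the deposited fits may already pair libraries. The reconstructed levels of those 6 tables count all 3 WT libraries, so they are approximate. In NP, CSex4, Deltaex4 and KO were set against the same 2 WT libraries, the table WT vs KO uses the other 2, and all 4 tables with KO share its 2 libraries. Suz12 itself had a log2 fold change of -1.82 ± 0.22 (SE) in ESC KO against WT, -1.05 ± 0.28 with the long rescue and -0.83 ± 0.27 with the short, and of -2.14 ± 0.33 in NP KO, all called lower in the authors' deposited tables. In the exon 4 lines Suz12 was not called in the authors' deposited tables. In ESC it was at 0.02 ± 0.31 in CSex4 and -1.28 ± 0.40 in Deltaex4 (unadjusted p 0.0013). In NP it was at 0.70 ± 0.30 in CSex4 and -0.61 ± 0.33 in Deltaex4. The part of these Suz12 levels in the results of the exon 4 lines was not tested. The libraries labelled KO-L3D had Suz12 at -1.85 ± 0.28, as low as KO, and those labelled KO-S3D -0.06 ± 0.42, in the authors' deposited tables, so the Suz12 RNA of the former does not show the rescue their label names. Statistics of ESC and NP Deltaex4 were narrower than their standard errors allow for (robust SD 0.501 and 0.525, where 1 is the value for unchanged genes), so an uncalled gene there is weak evidence of anything. The robust SD was also under 1, by less, in ESC KO-L (0.774), CSex4 (0.793), KO-S3D (0.93) and KO-S (0.996). In NP CSex4 it was 0.902. The same caution holds there to a lesser degree.

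In ESC, the de novo methyltransferases moved and the maintenance pair did not pass the test. Calls use a threshold of 0.05 on the adjusted p of DESeq2 that the authors deposited, and every fold change below is log2, line against WT, with its SE. Dnmt3b was lower in KO-S and in the libraries labelled KO-L3D, each by about 3-fold, Dnmt3a was lower in the libraries labelled KO-L3D by 3.94-fold, and Tet2 was higher in the libraries labelled KO-L3D. No other member was called in any ESC line.

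Dnmt3b had reconstructed levels of 5655 in KO-S against 17015 in WT, and of 6083 in the libraries labelled KO-L3D against 18302, in the authors' deposited tables. The change was -1.59 ± 0.36 in KO-S (adjusted p 4.35e-04) and -1.59 ± 0.31 in the libraries labelled KO-L3D (adjusted p 1.20e-05) in the authors' deposited tables. These are the only 2 of the 7 ESC tables in which Dnmt3b was called. In KO the authors' deposited table gave 5642 against 17666, a change of -1.65 ± 0.74 that was as large and not called (adjusted p 0.105). The SE of Dnmt3b there was larger than that of 99.5% of the 5539 genes with a mean of at least 1000, whose median SE was 0.191. KO-L was on the other side of WT at 0.47 ± 0.40 (adjusted p 0.883), with 23448 against 16896 in the authors' deposited table. CSex4 had 0.42 ± 0.32 (22954 against 17184) in the authors' deposited table, also not called (adjusted p 0.74). The authors' deposited tables put Deltaex4 at -0.95 ± 0.66 (9462 against 18309) and KO-S3D at -0.67 ± 0.38 (10579 against 16803), neither of them called. In order, Dnmt3b was therefore highest in KO-L and CSex4 and lowest in KO, KO-S and the libraries labelled KO-L3D, with Deltaex4 and KO-S3D between, and the tests between lines given further on called neither KO-S3D against KO-S nor CSex4 against Deltaex4.

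Dnmt3a was reconstructed at 1210 in the libraries labelled KO-L3D against 4771 in WT in the authors' deposited table. Its change of -1.98 ± 0.30 (adjusted p 2.98e-09) in the authors' deposited table was the largest of any member in ESC. In the other 6 ESC tables the authors' deposited values ran from -0.52 ± 0.32 in KO to 0.45 ± 0.28 in KO-L, and none was called. Their levels lay between 3171 in KO and 6278 in KO-L in the authors' deposited tables, all above the libraries labelled KO-L3D. Dnmt3l, the partner of these enzymes, was not called in any ESC table: the authors' deposited values ran from -0.79 ± 0.40 in Deltaex4 to 0.19 ± 0.37 in KO-S3D, with an unadjusted p of 0.0457 in Deltaex4 and 0.0498 in KO.

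Among the TET genes, Tet2 in the libraries labelled KO-L3D rose to 4846 from 2417, a change of 1.00 ± 0.28 (adjusted p 0.00491) in the authors' deposited table. KO-S3D had a like value that was not called, 1.23 ± 0.44 (5125 against 2179, adjusted p 0.0978), and KO had 0.65 ± 0.30 (3177 against 2019, adjusted p 0.111), in the authors' deposited tables. CSex4 and KO-L lay below WT at -0.67 ± 0.36 and -0.62 ± 0.43 in the authors' deposited tables, not called. Tet1 stayed within -0.39 and 0.32 in all 7 of the authors' deposited tables of ESC. Tet3 had 0.91 ± 0.41 in CSex4 (947 against 503, adjusted p 0.306) and 0.73 ± 0.32 in KO-S (799 against 482, adjusted p 0.161) in the authors' deposited tables, both with an unadjusted p under 0.05 and neither called. In KO, Tet3 was at -0.23 ± 0.23 (422 against 494) in the authors' deposited table, not called, with a 95% interval of -0.67 to 0.22. Whether the regions listed for Tet3 have a part in its values was not tested.

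For the maintenance genes, Dnmt1 and Uhrf1 had negative values in all 7 ESC tables, which share their WT libraries, and no call. The authors' deposited tables gave Dnmt1 from -0.42 (the libraries labelled KO-L3D) to -0.03 (CSex4), and Uhrf1 from -0.46 (the libraries labelled KO-L3D) to -0.20 (Deltaex4). The lowest adjusted p among them was 0.0901, for Uhrf1 in KO (-0.40 ± 0.17, unadjusted p 0.0205), in the authors' deposited table.

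The counts can be read against the share of all genes called. KO had 0 of 8 members called where 18.3% of tested genes were, with 4 members at an unadjusted p under 0.05. The libraries labelled KO-L3D had 1 higher (8.22% of genes) and 2 lower (10.1%; 18.3% in either direction), KO-S 1 lower (3.63%, and 7.91% in either direction), KO-S3D 0 (3.23%), CSex4 0 (2.41%), KO-L 0 (2.23%) and Deltaex4 0 (0%). The median log2 fold change of the 8 genes was -0.31 in KO against 0.01 over all tested genes, and -0.42 in the libraries labelled KO-L3D against -0.03, by the authors' deposited tables. At an unadjusted p under 0.05, CSex4, Deltaex4 and KO-S3D each had 1 member and KO-L had none.

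**Figure D3:**
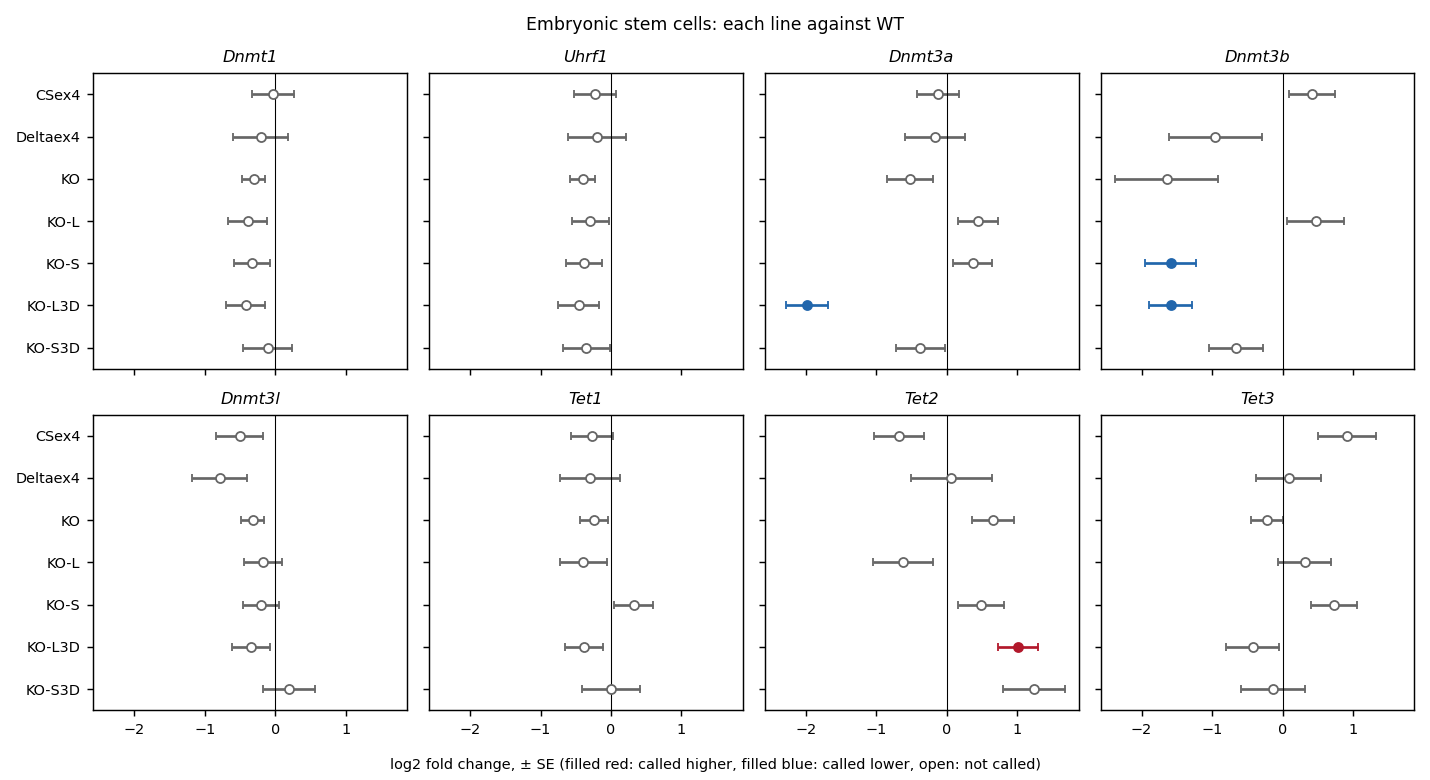
Log2 fold change against WT (horizontal axis, ± SE) of the 8 members in the 7 ESC comparisons, with filled points for called genes and open points for the rest. Dnmt3b is called lower in KO-S and in the libraries labelled KO-L3D, with KO as low but with a wide error, and Dnmt3a and Tet2 are called in the libraries labelled KO-L3D.

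Other genes moved in the same ESC tables. In KO-S, 4 of 6 formative markers (genes that come up as cells leave the naive state) were lower and none was higher, among them Lef1 (-4.95 ± 0.57) and Otx2 (-1.63 ± 0.32), in the authors' deposited table. In KO-L3D 2 of 6 were lower, Lef1 (-5.84) and Sox4 (-1.12), and 4 of 8 pluripotency markers were higher, Tbx3 the most at 3.78, in the authors' deposited table. Summed over the formative list, the reconstructed level was 1820 in KO-S against 3876 in WT and 2311 in the libraries labelled KO-L3D against 4199, with no marker under 1, in the authors' deposited tables. In KO-L3D, 6 of 8 trophoblast markers were higher too, with a summed level of 21756 against 7296, among them Hand1 (6.08), in the authors' deposited table. Trophoblast markers were also called higher, with none lower, in KO (4 of 8), KO-L (5 of 7 tested) and CSex4 (4 of 7 tested). Summed levels there were 9476 against 6446, 17222 against 5361 and 34591 against 5862. KO-S had 1 higher and 1 lower. In KO 4 of 8 pluripotency markers were higher and 2 of 6 formative markers lower. In CSex4 4 pluripotency markers were lower and 2 formative markers higher. In KO-S, 3 of 8 pluripotency markers were higher, with Tbx3 at 2.84, in the authors' deposited table. The median of that list was 0.16, and its summed level was 116090 against 93017. The 6 endoderm markers of KO-S had a median of 2.92 and a summed level of 7092 against 1245 with none called, in the authors' deposited table. Of 7 proliferation markers 2 were lower in the libraries labelled KO-L3D, with Top2a at -1.35 and a summed level of 77926 against 125991, in the authors' deposited table. Bulk RNA cannot tell fewer cells of a type from less RNA per cell, and the part of these markers in the Dnmt3b, Dnmt3a and Tet2 results was not tested.

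Over all tested genes in ESC, 11% were called higher and 7.27% lower in KO, 4.28% and 3.63% in KO-S, and 8.22% and 10.1% in the libraries labelled KO-L3D, by the authors' deposited tables. Among cofactors of methylation, Prdm14, a repressor of the de novo enzymes in naive cells, was higher in KO (1.98, adjusted p 7.02e-10) and in the libraries labelled KO-L3D (1.99, adjusted p 3.45e-08) in the authors' deposited tables. Hells, a remodeller needed for methylation of repeats, was lower in KO (-0.64), KO-S (-0.88) and KO-L3D (-1.20) in the authors' deposited tables. Dppa3, a germ and early embryo protein that keeps Uhrf1 off chromatin, was at -2.35 in KO-S, and Smchd1, a chromosomal protein of X inactivation, was at -1.43 in the libraries labelled KO-L3D, in the authors' deposited tables. Of the 13 cofactors, 2 were higher and 4 lower in KO, 1 and 2 in KO-S, and 2 and 5 in the libraries labelled KO-L3D, by the authors' deposited tables. Of 17 genes of demethylation and base excision, 16 or 17 of them tested, 1 was higher and 4 lower in KO and 1 and 5 in the libraries labelled KO-L3D, with Tdg, the glycosylase that removes oxidised methylcytosine, at -0.70 and -1.21, in the authors' deposited tables. Of the 12 germline genes known to be silenced by promoter methylation, 9 were higher and 0 lower in KO, with a median of 1.74 against 0.01 over all tested genes, in the authors' deposited table. Dazl (2.67) and Tex19.1 (1.56) were among those 9. In the libraries labelled KO-L3D, 0 of the germline genes were higher and 3 were lower, Ddx4 the most at -2.05, in the authors' deposited table. The part of the members in these germline values was not tested.

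The rescue lines allowed the long and short isoforms to be compared with each other. A difference here is that of 2 log2 fold changes from the authors' deposited tables, with an SE that ignores the libraries both share (which makes it wide), tested by its z value and adjusted by Benjamini-Hochberg over all genes. In ESC, Dnmt3b was higher with the long than with the short isoform by 2.06 ± 0.54 (95% interval 1.00 to 3.12, adjusted p 0.00726), the 1 member called (3.94% of genes called). For the other 7 the differences lay between -1.11 ± 0.54 (Tet2) and 0.10 ± 0.37 (Uhrf1) and were not called, with intervals as wide as -2.17 to -0.05 for Tet2. In NP the rescues were each set against KO, and Dnmt3b was again higher with the long isoform, by 0.93 ± 0.31 (interval 0.32 to 1.53, adjusted p 0.0314). Tet2 was lower with the long isoform there, by -1.26 ± 0.39 (interval -2.02 to -0.49, adjusted p 0.0168), so 2 members were called where 10.3% of genes were. Both NP differences failed at an adjusted p of 0.01.

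The libraries labelled KO-L3D were compared with KO-L in ESC, and since their Suz12 RNA was as low as in KO, the 3D mutation and a lower Suz12 level cannot be told apart in this contrast. Libraries labelled KO-L3D were below KO-L for Dnmt3a by -2.43 ± 0.41 (adjusted p 1.62e-06) and for Dnmt3b by -2.06 ± 0.51 (adjusted p 0.00353), and above it for Tet2 by 1.63 ± 0.51 (adjusted p 0.0378). That is 3 of 8 members where 4.88% of genes were called. For the short isoform no member differed between KO-S3D and KO-S (0.732% of genes called, and 0 members at an unadjusted p under 0.05), and the nearest was Dnmt3b at 0.92 ± 0.53 (interval -0.11 to 1.95, adjusted p 0.957). The libraries labelled KO-L3D were compared with KO-S3D after seeing the data: Dnmt3a differed by -1.60 ± 0.45, with an unadjusted p of 4.10e-04 and an adjusted p of 0.345, and no member was called (0.0541% of genes). Also after seeing the data, the libraries labelled KO-L3D were set against KO: Dnmt3a differed by -1.46 ± 0.44 (adjusted p 0.0658) and Dnmt3b by 0.06 ± 0.80, with no member called (1.13% of genes). Both Dnmt3a differences passed only when an assumed covariance for the shared WT libraries was taken out of the SE (adjusted p 0.00273 and 7.63e-04). That covariance was set from the SE of the tables and not measured on samples. KO-L against KO had 0 members called (0.589% of genes), 3 of them at an unadjusted p under 0.05, Dnmt3b at 2.12 ± 0.84 (adjusted p 0.345). KO-S against KO had 0 (3.76% of genes), 2 at an unadjusted p under 0.05, with Dnmt3b at 0.06 ± 0.82. KO-S3D against KO, added after seeing the data, had 0 (0.15% of genes) and 0 at an unadjusted p under 0.05. CSex4 against Deltaex4 in ESC had 0 as well (0.0766% of genes), with 0 at an unadjusted p under 0.05.

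**Figure D4:**
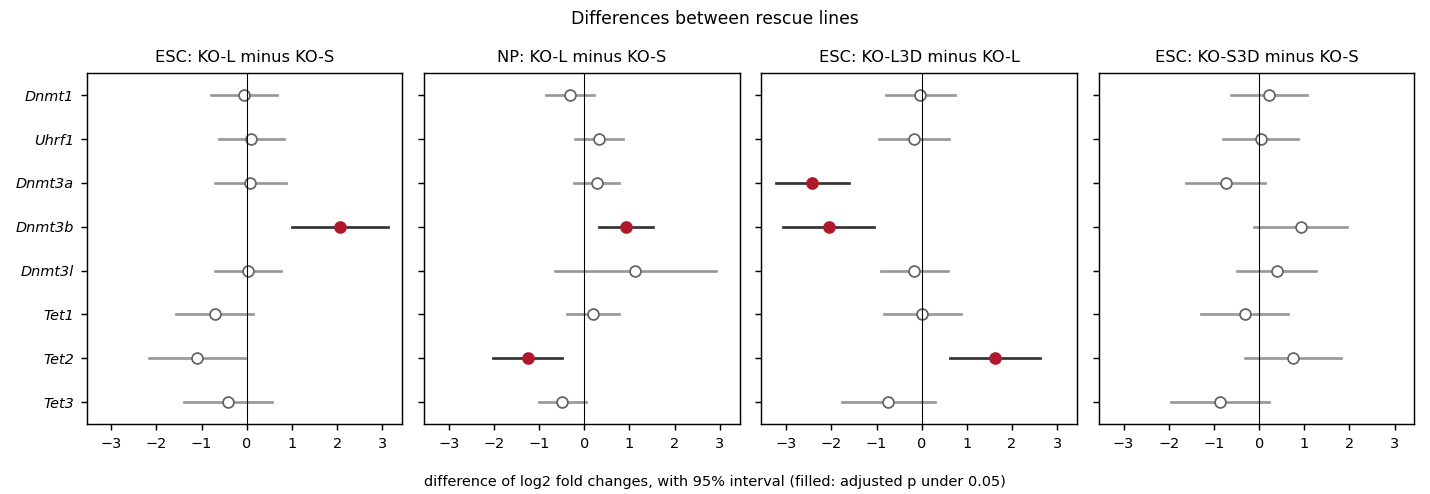
Difference of log2 fold changes (horizontal axis, with 95% interval) between rescue lines for the 8 members, with filled red points at an adjusted p under 0.05. Dnmt3b is higher with the long isoform in ESC and NP, Tet2 is lower with it in NP, and the libraries labelled KO-L3D differ from KO-L for Dnmt3a, Dnmt3b and Tet2.

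In neuronal precursors the maintenance pair and all 3 TET genes were called lower in KO. The authors' deposited table of KO vs WT called 5 of 8 members lower and 0 higher, where 9.85% of tested genes were called lower and 21.4% in either direction. The falls were 2.04-fold to 2.75-fold, and the median of the 8 genes was -1.04 against -0.01 over all tested genes in the authors' deposited table. Dnmt1 went from 10386 in WT to 4401 in KO, a change of -1.24 ± 0.35 (adjusted p 0.00363), and Uhrf1 from 6962 to 3407, -1.03 ± 0.36 (adjusted p 0.0221), in the authors' deposited table. Tet1 had the largest fall, from 2778 to 1011, -1.46 ± 0.35 (adjusted p 3.23e-04), in the authors' deposited table. For Tet2 the authors' deposited table gave 1740 and 712, -1.29 ± 0.43 (adjusted p 0.0151), and for Tet3 it gave 3970 and 1911, -1.06 ± 0.36 (adjusted p 0.0209). Dnmt3a was at 0.13 ± 0.34 (6183 and 6769), Dnmt3b at 0.90 ± 0.44 (862 and 1605, adjusted p 0.144) and Dnmt3l at -0.34 ± 0.71 (687 and 544, adjusted p 0.806), none of them called, in the authors' deposited table.

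A second table set the other pair of NP WT libraries against the same 2 KO libraries. There the same 5 genes were higher in WT in the authors' deposited table (15.6% of genes called higher, 17.3% lower and 32.9% in either direction): Dnmt1 by 1.12 ± 0.29, Uhrf1 by 0.88 ± 0.28, Tet1 by 1.15 ± 0.29, Tet2 by 1.10 ± 0.39 and Tet3 by 1.39 ± 0.26. Both tables share the KO libraries, so the second is not an independent repeat. Dnmt3b and Dnmt3l were called lower in WT in the authors' deposited table, that is, higher in KO: Dnmt3b at -1.40 ± 0.32 (638 in WT against 1688 in KO, adjusted p 7.63e-05) and Dnmt3l at -2.16 ± 0.59 (121 against 540, adjusted p 0.00134). For Dnmt3b the 2 pairs of WT libraries gave the same direction. For Dnmt3l they did not: the first pair had 687, above KO, and the second 121, below it, in the authors' deposited tables. A test of the 2 tables against each other, added after seeing the data, gave a difference of 2.5 ± 0.92 for Dnmt3l (unadjusted p 0.00674, adjusted p 1). By this z test 0 of 16026 genes were called (0%), with 327 at an unadjusted p under 0.05, and the other 7 members lay between -0.34 and 0.51. The sign of the Dnmt3l value in NP KO thus differed between the WT pairs, while the difference itself was not called.

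Rescue of the KO was measured in NP against KO. In the authors' deposited table the short isoform gave 5 members higher and 1 lower (16.4% of genes called higher, 18% lower and 34.5% in either direction): Dnmt1 0.83 ± 0.17, Uhrf1 0.72 ± 0.18, Tet1 0.97 ± 0.19, Tet2 0.80 ± 0.22 and Tet3 0.96 ± 0.17, with Dnmt3b at -0.55 ± 0.22 (adjusted p 0.039). The same 5 genes were called lower in KO vs WT, but both tables use the same 2 KO libraries, so a deviation of those libraries alone would move the values in opposite directions. Levels of Dnmt1 went from 4179 in KO to 7427 in KO-S, those of Tet1 from 958 to 1883 and those of Tet3 from 1760 to 3416 in the authors' deposited table. With the long isoform 2 members were higher and 0 lower (10.9% of genes called higher, 24.7% in either direction): Uhrf1 at 1.04 ± 0.21 (3052 in KO, 6278 in KO-L, adjusted p 5.17e-06) and Tet1 at 1.16 ± 0.22 (907 and 2031, adjusted p 1.94e-06) in the authors' deposited table. Dnmt1 (0.51 ± 0.21, adjusted p 0.0591) and Tet3 (0.47 ± 0.21, adjusted p 0.0828) were on the same side and not called, and Tet2 was at -0.46 ± 0.32 (659 and 481), in the authors' deposited table. Of these, Tet2 is the gene for which the 2 rescues differed by the test given above, and for Dnmt1, Uhrf1, Tet1 and Tet3 their difference was not called. Dnmt3l was at 1.70 ± 0.83 in KO-L (387 and 1260, adjusted p 0.125) in the authors' deposited table, with an SE larger than that of 99.9% of genes with a mean of at least 1000, though its own mean was 823.6.

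**Figure D5:**
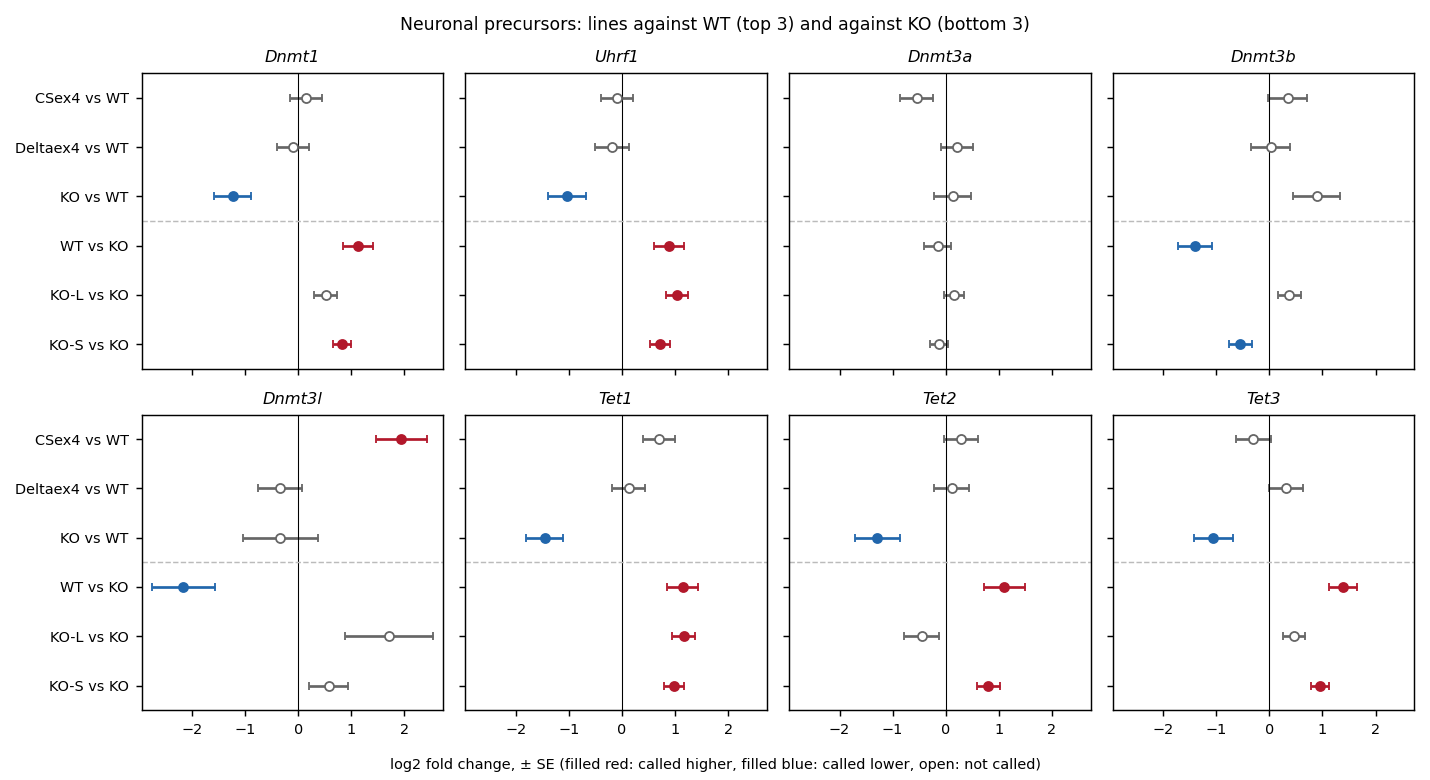
Log2 fold change (horizontal axis, ± SE) of the 8 members in the 6 NP comparisons, with the lines set against WT above the dashed line and those set against KO below it, and filled points for called genes. Dnmt1, Uhrf1, Tet1, Tet2 and Tet3 are lower in KO and higher in WT and KO-S than in KO, and Dnmt3l is called only in CSex4 vs WT and WT vs KO.

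The exon 4 lines changed 1 member in NP. Dnmt3l was higher in CSex4 by 3.85-fold, from 559 to 2149 (1.94 ± 0.47, adjusted p 0.00177), the 1 member called where 4.08% of genes were called higher and 5.53% in either direction, in the authors' deposited table. Its SE there was larger than that of 99.5% of genes with a mean of at least 1000. The WT pair of this table is the one with the higher Dnmt3l of the 2 pairs. Tet1 was at 0.70 ± 0.30 (2805 and 4565, adjusted p 0.197), not called, in the authors' deposited table. In Deltaex4 no member was called (0.0809% of genes), 0 had an unadjusted p under 0.05, and the values lay between -0.34 and 0.32 in the authors' deposited table. CSex4 and Deltaex4 differed for Dnmt3l by 2.28 ± 0.63 (interval 1.05 to 3.51, adjusted p 0.0227), the 1 member called (1.78% of genes).

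The KO effect was then compared between the cell types, whose tables share no library. Relative to ESC, the NP effect was higher for Dnmt3b by 2.54 ± 0.86 (adjusted p 0.0268), and lower for Tet1 by -1.22 ± 0.40 (adjusted p 0.0224) and for Tet2 by -1.94 ± 0.52 (adjusted p 0.00277). That is 3 members where 14.3% of genes were called. Dnmt3b and Tet2 had opposite signs in the 2 cell types, with Dnmt3b negative in ESC and positive in NP and Tet2 the reverse, although of these values, which use the first pair of WT libraries, only that of Tet2 in NP was itself called. Dnmt1 differed by -0.93 ± 0.39 (adjusted p 0.092), Uhrf1 by -0.63 ± 0.40 (adjusted p 0.336) and Tet3 by -0.83 ± 0.43 (adjusted p 0.206). For these 3 genes the fall in NP is therefore not shown to differ from the ESC value. The CSex4 effect differed between cell types for Dnmt3l by 2.45 ± 0.58 (adjusted p 0.00146), the 1 member called (4.97% of genes), and for Tet3 by -1.22 ± 0.52 without a call (adjusted p 0.196). The Deltaex4 effect differed for no member (0.0071% of genes called), with 0 members at an unadjusted p under 0.05.

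Markers of cell state and of other cell types moved strongly in NP, and their part in the members' results was not tested. In KO vs WT, 7 of 8 neural precursor markers were lower and their summed level was 4012 against 28183, with Pax6 at -2.84, in the authors' deposited table. Of 8 trophoblast markers 5 were higher (summed level 49853 against 13822) and of 6 endoderm markers 3 were higher (18656 against 7857), among them Elf5 (3.12), Cdx2 (2.16), Foxa2 (2.21) and Gata4 (1.85), in the authors' deposited table. The markers of the labelled cell type are thus low in KO NP, and no marker of these lists was under 1 in either group. Of 7 proliferation markers 2 were lower in KO, Mki67 at -2.58 and Top2a at -1.69, with a summed level of 38493 against 84057, in the authors' deposited table. In KO-S 6 of 7 were higher than in KO (69285 against 36310) and in KO-L also 6 of 7 (57975 against 34481), in the authors' deposited tables. Of the 8 neural precursor markers, 8 were higher in KO-S than in KO (summed level 17233 against 3413). In KO-L 6 were higher and 1 lower (11854 against 3271). The second WT pair had 7 higher and 0 lower than KO (52038 against 3878), in the authors' deposited tables.

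Pluripotency markers in NP are given beside Dnmt3l for each table, and their part in the Dnmt3l values was not tested. In CSex4, where Dnmt3l was called higher, 5 of 8 were higher and 0 lower, with Nanog at 2.79 and a summed level of 41377 against 12308, and 3 of 8 neural precursor markers were lower (16173 against 26838), in the authors' deposited table. Of 8 trophoblast markers 3 were higher in CSex4 and none lower, Ascl2 at 2.62, with a summed level of 24769 against 14170, in the authors' deposited table. Dppa3 (2.58) and Prdm14 (2.51), both cofactors tied to low methylation in naive and germ cells, were higher there too, in the authors' deposited table. In KO-L, where Dnmt3l was not called, the pluripotency list had 5 of 8 higher and 1 lower (25686 against 9614), with Nanog at 2.93 and Klf4 at -2.15, in the authors' deposited table. In WT vs KO, where the second WT pair had little Dnmt3l, 6 of 8 were lower in WT and 1, Sox2, was higher, in the authors' deposited table. The summed level of the list there was 7996 against 12102. In KO-S 4 were lower and 1, Sox2, was higher, with a summed level of 8525 against 10423 and Dnmt3l at 0.57, in the authors' deposited table. In KO vs WT 3 were higher and 1, Sox2, was lower, with a summed level of 11288 against 13059 and Dnmt3l at -0.34, in the authors' deposited table. Neither Dnmt3l value was called, with 95% intervals of -0.149 to 1.292 in KO-S and -1.727 to 1.055 in KO vs WT. Deltaex4 had 0 of 8 called (12674 against 13036) in the authors' deposited table.

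Other genes of the methylation pathway were counted in the same NP tables. Over all tested genes, 11.6% were called higher and 9.85% lower in KO vs WT, 10.9% and 13.8% in KO-L against KO, 16.4% and 18% in KO-S against KO, 15.6% and 17.3% in WT vs KO, and 4.08% and 1.45% in CSex4, by the authors' deposited tables. Of the 13 cofactors, 4 were lower and 0 higher in NP KO vs WT, with Cdca7 at -1.34 and Zfp57 at -1.23, and 9 were higher and 0 lower in KO-L against KO, in the authors' deposited tables. In KO-S 7 were higher and 1, Dppa3, was lower (-3.04), in the authors' deposited table. Of the 17 genes of demethylation and base excision 5 were lower and 0 higher in KO, with the glycosylase gene Neil3 at -2.32 and Parp1 at -1.22, and 7 and 9 were higher and 0 lower in KO-L and KO-S, in the authors' deposited tables. Among 7 readers of methylated CG 0 were called in KO vs WT, and 2 were lower in each rescue, with Zbtb4 at -1.20 in KO-L and -0.80 in KO-S, in the authors' deposited tables. Of the 12 germline genes 3 were higher in KO vs WT, 9 were lower in WT vs KO, 7 were higher in CSex4 and 7 were lower in KO-S, and none went the other way in these 4 authors' deposited tables. In KO-L against KO 1 was higher, Stk31 at 1.70, and 1 was lower, and in Deltaex4 none of the 11 tested was called, in the authors' deposited tables. Dazl, a germ cell RNA-binding protein gene, was at 2.16 in CSex4 in the authors' deposited table.

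Genes whose fold changes followed each member most closely were found by Pearson's r over the 13 comparisons among 10238 genes with a mean of at least 100 in each table. This is a description, since the comparisons share libraries. For Dnmt1 the closest were Topbp1 (r = 0.983), Gcfc2 and Pif1, and for Uhrf1 Chek1 (0.984), Lck and Espl1. For Dnmt3a they were Lrp5 (0.911), Axin1 and Pafah1b1, and for Dnmt3b Nop9 (0.956), Phf5a and Psme3. For Dnmt3l they included Nodal and Pou5f1 (0.925). For Tet1 they were Cnot3, Zranb3 (0.963) and Bard1, for Tet2 Whamm (0.958), Prpf40b and Eif4a2, and for Tet3 Mib1 (0.951), Pja1 and Ylpm1. The antisense gene Dnmt3aos lies inside Dnmt3a and had a mean of at most 1.04 scaled reads in the 13 authors' deposited tables. Whether reads were counted by strand is not given in the sources used here, so reads of the pair cannot be told apart.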

How the data were processed

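The files analysed are 13 tables of RNA-seq comparisons (32 samples) and 2 lists of ChIP-seq regions. The authors deposited, per gene, a signal (named baseMean in the file headers, as DESeq2 names its mean of scaled reads), log2 fold changes with SE, p-values and adjusted p-values. Per the submitters' processing notes the tools include Bowtie, TopHat, DESeq2 and DiffBind and the builds mm10 and dm3, with roles and versions not given in the sources used here. Each region of the deposited lists has another value between 0 and 1, of a kind the file headers do not name, so it was used to rank regions only. No per-sample values were used, so no model was refitted and the authors' statistics stand as deposited. The deposited test statistic, a score, equals the fold change divided by its SE, as checked on every table.

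Computed here (Python 3.11.15, pandas 2.3.3, SciPy 1.17.1): calls at an adjusted p under 0.05; 15 differences between tables by z test over the genes whose mean reached 10 in each table, Benjamini-Hochberg adjusted, 4 of them chosen after seeing the data; overlaps of regions with RefSeq GRCm38.p6 gene starts (window 2500 bp), the same build as mm10; CG counts in RefSeq promoters; and the libraries that tables share, read from genes with a single read. Alternatives were a threshold of 0.01, adjustment over every gene, no mean filter, median centring, an SE less an assumed covariance of shared libraries, and other region windows. The difference test was tried on simulated data, with added changes larger than any called member difference and only in genes with a mean of at least 1000. How often smaller changes, or changes at lower means, are found was not simulated. Named genes are the 8 members in every comparison, Suz12, the 3 genes most alike each member, and, from the lists, called genes with the largest rise or fall where a member was called. Genes at about 1 read in a group are left out, and the other list genes named were chosen after their values were seen. Some results that this rule would name are not reported here. The members and lists were chosen with earlier results of these data known. ChIP-seq values per sample were not analysed here.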

Additional observations from a re-analysis of the deposited data

Results flagged for a closer look

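The effect of the knock-out differed between NP and ESC, by the test of the difference itself, for Dnmt3b (2.54 ± 0.86 on the log2 scale, NP minus ESC, adjusted p 0.0268), Tet1 (-1.22 ± 0.40, adjusted p 0.0224) and Tet2 (-1.94 ± 0.52, adjusted p 0.00277). The effect of CSex4 differed between NP and ESC for Dnmt3l (2.45 ± 0.58, adjusted p 0.00146). In the comparison of 2 cell types, 14.3% of all genes differed for the knock-out and 4.97% for CSex4. The Dnmt3b value rests on an ESC effect with an SE of 0.74.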

How the results depend on the processing

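Centring each table on its median fold change altered no call on a member, and no called value changed sign under any alternative run; the 1 sign change was Tet1 in ESC KO-S3D, from -0.003 to 0.026 with centring. At an adjusted p under 0.01 the members called in NP KO vs WT went from 5 to 2 (Dnmt1 and Tet1 remained), those differing between CSex4 and Deltaex4 in NP from 1 to 0, between KO-L and KO-S in NP from 2 to 0, and between the knock-out effects in NP and ESC from 3 to 1 (Tet2). A further alternative took an assumed covariance of shared libraries, not measured on samples, out of the SE. With it the count went from 0 to 1 for KO-S minus KO in ESC (Tet3, 0.96, adjusted p 0.0402), for KO-L3D minus KO-S3D and for KO-L3D minus KO (Dnmt3a in both). Adjusting over every gene with a p put Dnmt3b in NP KO-S vs KO at 0.0505, and dropping the baseMean filter put Tet2 in KO-L3D minus KO-L at 0.0521. Members with an H3K27me3 region numbered 2 with a window of 5000 bp or over the whole gene span, in place of 1, and members with a Suz12 region 0 with values under 1e-05 or at transcript starts. Only the authors' fitted statistics were used, so leaving out a replicate was not run. No paired analysis was possible because the tables hold the authors' statistics and no values per sample, although their file names call those statistics paired, so pairing may already be part of them. Groups of 2 or 3 samples, in 1 line each, limit every comparison.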
